A study of Mus musculus with 568 samples.

Results

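The 6 genes described here encode factors that set up and protect the mammalian germline: the transcriptional regulators *Prdm1* (also called *Blimp1*), *Prdm14* and *Tfap2c*, the RNA-binding proteins *Nanos3* and *Dnd1*, and the chromatin-associated protein *Dppa3* (also called *Stella*). They were chosen by name, with earlier results of these data known, and all 6 were present among the 16335 genes of the bulk table and among the 15718 genes of the single-cell table. The question was how they were expressed along an in vitro path from mouse embryonic stem cells (ESCs) to epiblast-like cells (EpiLCs), to primordial germ cell-like cells (PGCLCs), and on to germ cells in reconstituted ovaries (rOvaries), and whether they differed with the activity of 1 of the X chromosomes.

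Every sample carried the same engineered background. The female ESC line was a hybrid of 129S1/SvImJ and CAST/EiJ, with a truncated *Tsix* and a GFP reporter on the 129S1/SvImJ-derived X (Xmus), a tdTomato reporter on the CAST/EiJ-derived X (Xcas), rtTA at *Rosa26*, and piggyBac transgenes from which doxycycline induces *Prdm1*, *Prdm14* and *Tfap2c*. ESCs and EpiLCs, the latter made in steps of 48 h, were not sorted. PGCLCs were induced for 5 days with 1.5 µg/ml doxycycline in medium without the usual cytokines and sorted for the surface proteins SSEA1 and CD61. They were split by the Xmus reporter into XGFP+ PGCLCs, in which the reporter is active, and XGFP− PGCLCs, in which it is silenced. The authors describe X-inactivation in XGFP− PGCLCs as moderate, with many X-linked genes still active on Xmus. Bulk RNA was measured in 4 libraries of each group. For rOvaries, sorted PGCLCs were mixed with 75000 somatic cells from the gonads and mesonephros of E13.5 females and cultured for 6 days. Single germ cells were then sorted as XGFP+ constitutive cells from XGFP+ PGCLC rOvaries, and as XGFPhigh, XGFPintermediate and XGFPlow cells from XGFP− PGCLC rOvaries.

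In the embryo, these genes act in a hierarchy. PRDM1 represses the somatic programme of the epiblast, PRDM14 supports the return of pluripotency genes and represses de novo DNA methylation enzymes, and TFAP2C, which acts downstream of PRDM1, is needed for the germ cell state. NANOS3 and DND1 bind messenger RNAs and are needed for the survival of migrating germ cells, and DPPA3 is a classical marker of early germ cells that restrains DNA methylation through UHRF1. The deposited values count all reads of a gene, so transcripts of the 3 induced transgenes and of the endogenous *Prdm1*, *Prdm14* and *Tfap2c* loci cannot be told apart in PGCLCs. The same holds for rOvary cells, which carry the same transgenes. *Nanos3*, *Dnd1* and *Dppa3* had no transgene.

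Promoter sequences of 2 of the 6 genes were available, and they are shown because *Prdm1* is a factor supplied as a transgene, whereas *Nanos3* has no transgene. Both are from RefSeq on GRCm38.p6, the assembly behind the mm10 build of the expression data, and run from 250 bases before to 50 bases after the annotated start, with CpG dinucleotides in capitals. The *Nanos3* window is chr8:84176503-84176802 on the minus strand, and the *Prdm1* window is chr10:44458699-44458998 on the minus strand.
Nanos3: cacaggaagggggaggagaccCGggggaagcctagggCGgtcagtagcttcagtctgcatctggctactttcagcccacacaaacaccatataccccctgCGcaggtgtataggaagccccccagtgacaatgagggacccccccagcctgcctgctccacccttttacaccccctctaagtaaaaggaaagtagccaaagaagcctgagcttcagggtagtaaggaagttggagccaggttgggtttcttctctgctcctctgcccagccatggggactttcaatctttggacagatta
Prdm1: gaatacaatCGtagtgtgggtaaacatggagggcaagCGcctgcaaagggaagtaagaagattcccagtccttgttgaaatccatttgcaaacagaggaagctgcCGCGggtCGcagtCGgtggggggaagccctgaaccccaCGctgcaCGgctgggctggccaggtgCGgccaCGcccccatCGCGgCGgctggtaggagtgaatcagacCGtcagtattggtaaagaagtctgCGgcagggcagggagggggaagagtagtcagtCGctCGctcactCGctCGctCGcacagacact
The *Nanos3* window held 3 CpG sites and the *Prdm1* window 20, against a median of 7 (quartiles 3 and 20) over the 32851 promoter windows of the same length. The TFAP2 motif GCCNNNGGC, searched on both strands, had 1 match in the *Nanos3* window, starting at base 30, and none in the *Prdm1* window, and 16.6% of all windows held it. The PRDM1 core AGNGAAAG, the E-box CACGTG and the PRDM14 motif GGTCTCTAA had no match in either window, against 8.63%, 7.15% and 0.256% of all windows. Both windows lie within the GENCODE gene span, downstream of its 5′ end.

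The bulk values are the authors' normalized counts, that is, reads of a gene divided by 1 size factor per library, and libraries held 29.8 to 46.5 M reads on genes. The labels were checked against marker genes. The summed counts of 6 naive pluripotency markers were 129903 to 146658 in ESCs and 3031 to 7606 in EpiLCs, and those of 6 epiblast markers were 3082 to 4330 in ESCs, 55634 to 65949 in EpiLCs, 1588 to 1939 in XGFP+ PGCLCs and 1119 to 1326 in XGFP− PGCLCs. *Itgb3*, which encodes CD61, had a mean of 15.4 in EpiLCs, 1103 in XGFP+ PGCLCs and 1794 in XGFP− PGCLCs. *Fut4*, which encodes a fucosyltransferase that can make the SSEA1 epitope, went the other way. Its mean was 1.37 in ESCs and 58.4 in EpiLCs, and it was lower than in EpiLCs in both PGCLC groups, at 6.06 in XGFP+ and 15.1 in XGFP− cells. No other gene of this epitope was looked at, so *Fut4* alone is no check of the sort for SSEA1. Bulk RNA cannot separate fewer cells expressing a gene from less RNA per cell. Differences were tested with limma on log2(normalized count + 1) in 1 model of all 16 libraries, with calls at an FDR below 0.001, and fold changes are fitted on that scale. The labels number the libraries but name no separate cultures, so p-values measure only the spread between these samples, which may be technical. The 4 libraries of a group may be 2 clones with 2 technical replicates each, in which case a group holds 2 independent samples.

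*Prdm1* (ENSMUSG00000038151, chr10:44437177-44528501, minus strand, mm10), a zinc-finger repressor, was low before PGCLC induction. ESC replicates 1 to 4 had 375, 606, 445 and 494 normalized counts, and the EpiLC replicates had 363, 287, 238 and 153. In XGFP+ PGCLCs the values were 3794, 4041, 4109 and 4106, and in XGFP− PGCLCs 7100, 7264, 6431 and 7043. The 2 PGCLC groups did not overlap with each other or with the earlier stages. Against EpiLCs, *Prdm1* rose 16.1-fold in XGFP+ PGCLCs (95% interval 12.4 to 20.9, FDR = 7.28e-13) and 27.9-fold in XGFP− PGCLCs (21.4 to 36.3, FDR = 4.42e-14).

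*Prdm14* (ENSMUSG00000042414, chr1:13113457-13127163, minus strand), a PR-domain regulator shared by naive pluripotent and germ cells, was high in ESCs, with 3182, 2973, 3542 and 3775 counts in replicates 1 to 4. EpiLC values were 334, 99.9, 242 and 29.6, the widest relative spread of the 6 genes, with an SD of 77.9% of the mean. PGCLC values were 3531, 3583, 3019 and 3511 in XGFP+ and 4419, 4397, 4191 and 4155 in XGFP− cells. The rise over EpiLCs was 27.02-fold (13.96 to 52.3, FDR = 2.18e-08) and 34.04-fold (17.6 to 65.9, FDR = 6.75e-09). XGFP+ PGCLCs and ESCs overlapped, with a log2 difference of 0.02 (−0.93 to 0.97, FDR = 0.97). The XGFP− PGCLC libraries lay above all ESC libraries, at a ratio of 1.28 (0.661 to 2.47) that did not pass in the 16-library model (FDR = 0.486) and did in the fit of those 2 groups alone (log2 difference 0.35, 0.20 to 0.51, FDR = 0.000754).

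*Tfap2c* (ENSMUSG00000028640, chr2:172549593-172558622, plus strand), an AP-2 family transcription factor, had 2353, 2008, 2800 and 2162 counts in ESCs and 241, 182, 172 and 147 in EpiLCs. In XGFP+ PGCLCs the counts were 5231, 5174, 4349 and 4441, and in XGFP− PGCLCs 6192, 6046, 5901 and 5777. Against EpiLCs it rose 26.1-fold (21.9 to 31.05, FDR = 5.19e-16) and 32.6-fold (27.4 to 38.8, FDR = 1.23e-16). *Tfap2c* was above its ESC level in both PGCLC groups, by 2.07-fold (1.74 to 2.46, FDR = 3.38e-07) in XGFP+ and 2.58-fold (2.17 to 3.08, FDR = 5.70e-09) in XGFP− cells. The order XGFP−, XGFP+, ESC, EpiLC held without overlap between neighbours.

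*Nanos3* (ENSMUSG00000056155, chr8:84173731-84185217, minus strand), an RNA-binding repressor of translation, was the lowest of the 6 genes and showed the largest fold changes against EpiLCs. It had 47.1, 25.7, 108.3 and 83.7 counts in ESCs and 9.51, 15.8, 3.97 and 10.9 in EpiLCs, the latter from 4 to 16 reads per library. XGFP+ PGCLCs had 662, 655, 544 and 572 counts and XGFP− PGCLCs 374, 410, 320 and 422. All 4 XGFP+ libraries lay above all 4 XGFP− libraries. The rise over EpiLCs was 60.1-fold (35.6 to 101.4, FDR = 4.08e-11) in XGFP+ and 37.7-fold (22.3 to 63.5, FDR = 1.655e-10) in XGFP− cells. *Nanos3* overlaps the microRNA genes *Mir181c* and *Mir181d* on the same strand.

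*Dnd1* (ENSMUSG00000044595, chr18:36763671-36766214, minus strand), an RNA-binding protein whose loss depletes germ cells, was the only member that was higher in EpiLCs than in ESCs. ESC replicates had 283, 276, 211 and 255 counts and EpiLC replicates 471, 432, 384 and 419. The counts were 2558, 2020, 2695 and 2191 in XGFP+ PGCLCs and 3983, 3575, 3310 and 3628 in XGFP− PGCLCs. The 4 groups did not overlap. The increase was 1.67-fold from ESCs to EpiLCs (1.44 to 1.94, FDR = 4.29e-06), then 5.52-fold (4.75 to 6.41, FDR = 2.79e-13) to XGFP+ and 8.49-fold (7.30 to 9.86, FDR = 1.00e-14) to XGFP− PGCLCs. Its 3′ end overlaps *Wdr55* on the opposite strand, and a pseudogene, *Dnd1-ps*, exists.

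*Dppa3* (ENSMUSG00000046323, chr6:122626410-122630272, plus strand), the classical early germ cell marker, had 2595, 2548, 1997 and 2167 counts in ESCs and 877, 848, 538 and 527 in EpiLCs. XGFP+ PGCLCs had 9843, 9684, 9520 and 9864 counts, with an SD of 1.65% of the mean, and XGFP− PGCLCs 4425, 5096, 5287 and 5980. The XGFP− values lay between those of ESCs and of XGFP+ PGCLCs, without overlap. Against EpiLCs the rise was 14.3-fold (11.6 to 17.7, FDR = 6.38e-14) in XGFP+ and 7.62-fold (6.18 to 9.38, FDR = 1.43e-12) in XGFP− cells. A pseudogene on the X chromosome, *Dppa3-ps*, averaged 285 counts in XGFP+ PGCLCs and 141.2 in XGFP− PGCLCs, and how reads were divided between the 2 genes is not known.

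**Figure D1:**
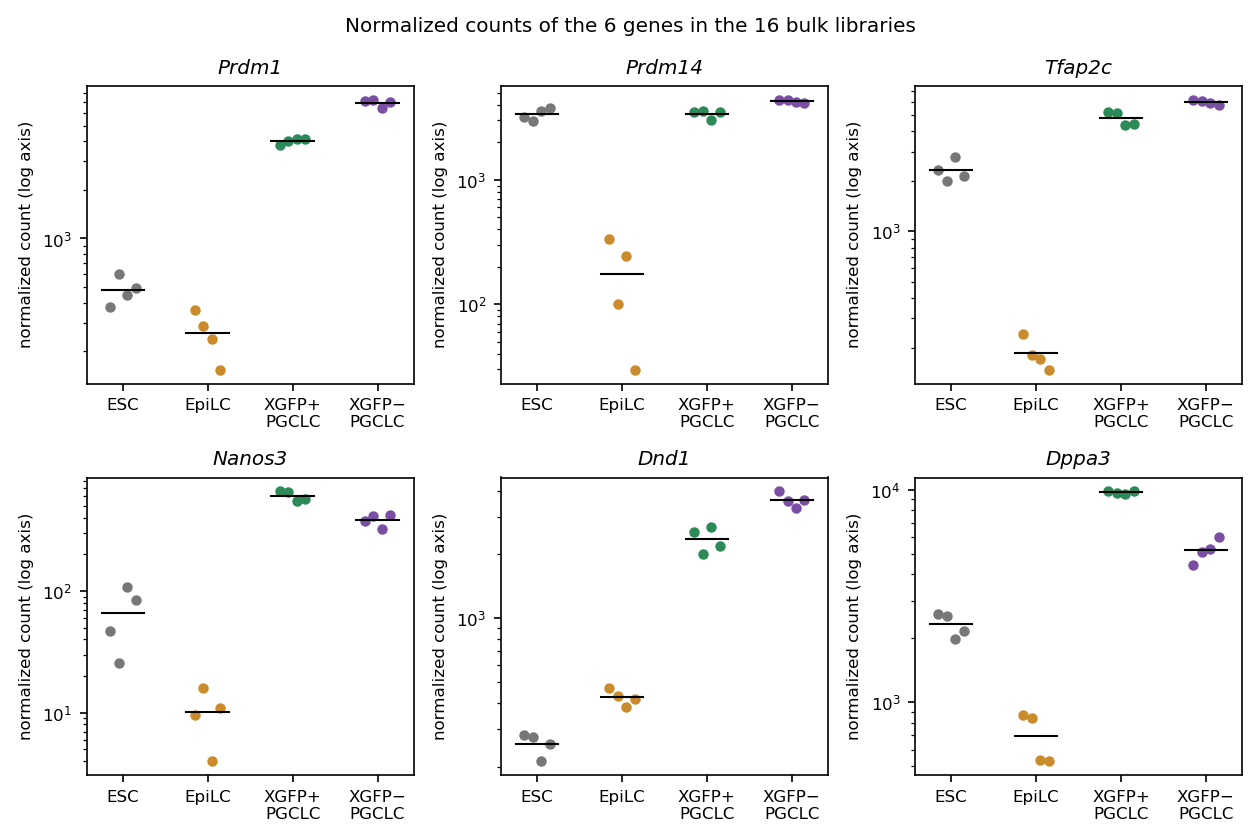
Normalized counts (log axis) of the 6 genes in each of the 16 bulk libraries, with a line at the mean of the 4 libraries of a group. All 6 genes are highest in 1 of the PGCLC groups, with Prdm1, Prdm14, Tfap2c and Dnd1 highest in XGFP− and Nanos3 and Dppa3 highest in XGFP+ PGCLCs.

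To set genes beside each other, counts were expressed per kilobase of annotated exon. The transgene transcripts may differ from these lengths, so in PGCLCs the places of *Prdm1*, *Prdm14* and *Tfap2c* among the 6 genes are uncertain. On this scale *Dppa3* led in every group, with 10906 ± 180 normalized counts per kb (SD, n = 4) in XGFP+ and 5826 ± 717 in XGFP− PGCLCs. In XGFP+ PGCLCs it was followed by *Prdm14* (1330 ± 102.7) and *Tfap2c* (1304 ± 127.3), which did not differ beyond their spread, then by *Dnd1* (981 ± 130), *Prdm1* (719 ± 26.7) and *Nanos3* (658 ± 64.02), the last 2 again within their spread. XGFP− PGCLCs had *Prdm14* at 1673 ± 53.3, *Tfap2c* at 1625 ± 48.8, *Dnd1* at 1502 ± 114.8, *Prdm1* at 1247 ± 65.4 and *Nanos3* at 413 ± 49.4 counts per kb. In ESCs, *Dppa3* (2609 ± 327), *Prdm14* (1314 ± 140) and *Tfap2c* (634 ± 93.3) stood apart from *Dnd1*, *Prdm1* and *Nanos3*, at 106.2 ± 13.3, 86.03 ± 17.4 and 71.7 ± 39.9. The pluripotent cells therefore held 3 of the 6 transcripts at high levels and 3 at low levels, and the 3 low ones included 1 gene with a transgene and 2 without.

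From ESCs to EpiLCs, 5 of the 6 genes fell and 1, *Dnd1*, rose, against 22.9% of all 16281 tested genes lower and 24.9% higher. The falls were largest for *Prdm14*, by 4.73 on the log2 scale (FDR = 3.02e-08), and *Tfap2c*, by 3.66 (FDR = 1.25e-14), followed by *Nanos3* (2.54, FDR = 4.905e-06), *Dppa3* (1.77, FDR = 2.98e-09) and *Prdm1* (0.93, FDR = 0.000178). *Prdm1* did not pass in the fit of ESCs and EpiLCs alone (FDR = 0.00408). *Prdm1*, *Prdm14*, *Tfap2c* and *Dppa3* were each highest in EpiLC replicate 1 and lowest in EpiLC replicate 4. The summed naive pluripotency markers had the same extremes, 7606 in replicate 1 and 3031 in replicate 4, and their part in the result was not tested.

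Between EpiLCs and PGCLCs, all 6 genes rose in XGFP+ PGCLCs, where 27.8% of tested genes were higher and 29.5% lower, and all 6 rose in XGFP− PGCLCs, where 29.9% were higher and 31.9% lower. These 2 comparisons share the EpiLC libraries. For *Prdm1*, *Prdm14* and *Tfap2c*, which the design induces from transgenes, a rise over EpiLCs was set in advance. The 3 genes without a transgene, *Nanos3*, *Dnd1* and *Dppa3*, all rose in both comparisons. Against ESCs, 5 of the 6 genes were higher in XGFP+ PGCLCs (25% of all genes higher, 24.9% lower) and the same 5 in XGFP− PGCLCs (29.8% higher, 29.6% lower), with *Prdm14* the exception in both. The 3 genes without a transgene were all among the 5, and the others were the induced *Prdm1* and *Tfap2c*. The largest rises over ESCs were those of *Nanos3* (10.3-fold, FDR = 1.33e-07), *Dnd1* (9.20-fold, FDR = 1.45e-14) and *Prdm1* (8.47-fold, FDR = 4.17e-11) in XGFP+ PGCLCs, and *Prdm1* (14.7-fold, FDR = 7.60e-13) and *Dnd1* (14.2-fold, FDR = 5.43e-16) in XGFP− PGCLCs.

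XGFP− and XGFP+ PGCLCs differ, by their sort, in whether the reporter on Xmus is silenced. Of the 6 genes, *Dnd1* was higher in XGFP− PGCLCs by 1.54-fold (1.32 to 1.79, FDR = 7.69e-05) and *Dppa3* was lower, at 0.531 of the XGFP+ level (0.431 to 0.655, FDR = 4.26e-05). That is 1 of 6 in each direction, where 11.3% of all genes were called higher and 12.5% lower in XGFP− cells. The other 4 did not pass the threshold in this model: *Prdm1* was at 1.73 times the XGFP+ level (1.33 to 2.26, FDR = 0.00143), *Prdm14* at 1.26 (0.651 to 2.44, FDR = 0.573), *Tfap2c* at 1.25 (1.05 to 1.49, FDR = 0.0337) and *Nanos3* at 0.627 (0.371 to 1.06, FDR = 0.132). The paper, with DESeq2 and the same FDR threshold, reports *Prdm1*, *Prdm14* and *Tfap2c* as significantly higher in XGFP− PGCLCs. It also measured early germ cell markers by quantitative RT-PCR.

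For each of the 6 genes, however, the 4 XGFP− libraries did not overlap with the 4 XGFP+ libraries, which held for 45.7% of all tested genes. The model of all 16 libraries uses 1 estimate of spread per gene, and that estimate included the ESC and EpiLC libraries. There the SD of *Prdm14* was 77.9% of the mean in EpiLCs, and that of *Nanos3* 55.7% in ESCs and 48.5% in EpiLCs, against 3.19% to 11.95% for both genes in PGCLCs. When only the 8 PGCLC libraries were fitted, 5 of the 6 genes passed, in a fit that called 3671 of the 16281 tested genes (11.5% of those tested higher and 11.1% lower). Libraries were not paired by replicate number in this fit. *Prdm1* (log2 difference 0.79, 0.68 to 0.91, FDR = 5.38e-07), *Prdm14* (0.33, 0.20 to 0.47, FDR = 0.000782) and *Dnd1* (0.62, 0.42 to 0.82, FDR = 0.000159) were then higher in XGFP− PGCLCs, and *Nanos3* (−0.67, −0.90 to −0.44, FDR = 0.000249) and *Dppa3* (−0.91, −1.08 to −0.75, FDR = 2.79e-06) lower. *Tfap2c* missed the threshold in this fit too (0.32, 0.18 to 0.47, FDR = 0.00185). The 3 genes with transgenes and *Dnd1* thus had higher means in XGFP− cells and *Nanos3* and *Dppa3* lower means. Leaving out EpiLC replicate 1, EpiLC replicate 4 or ESC replicate 2 also brought *Prdm1* past the threshold, at an FDR of 0.000334, 5.33e-05 and 0.000962.

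**Figure D2:**
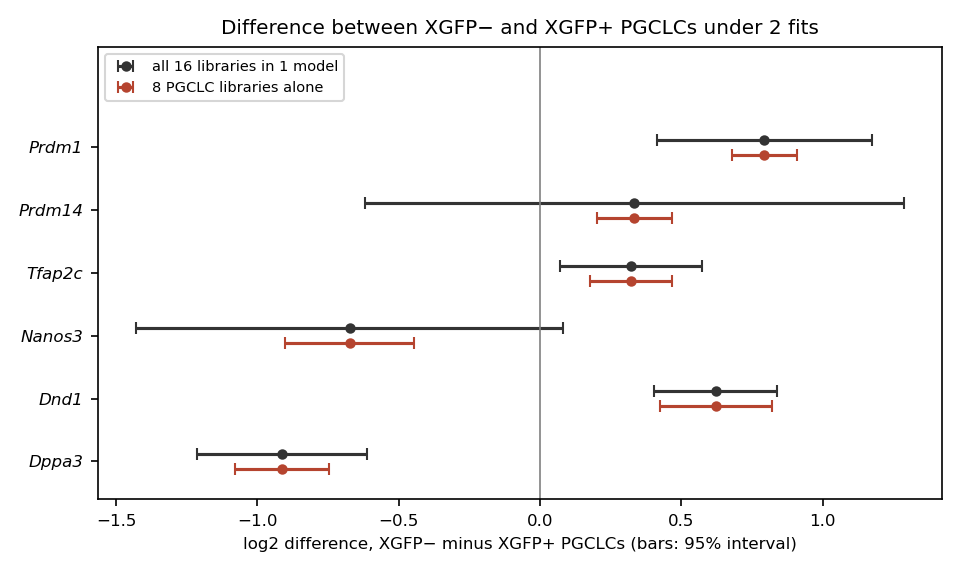
Log2 difference of each gene between XGFP− and XGFP+ PGCLCs (horizontal axis, XGFP− minus XGFP+) with 95% intervals, in the model of all 16 libraries and in a fit of the 8 PGCLC libraries alone. The estimates are the same in both fits, and the interval of Prdm14 narrows from −0.62 to 1.29 to 0.20 to 0.47.

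Summed over the 3 genes with transgenes, normalized counts ran from 11478 to 12799 in XGFP+ and from 16523 to 17710 in XGFP− PGCLCs. Over *Nanos3*, *Dnd1* and *Dppa3* they ran from 12358.5 to 13063.2 in XGFP+ and from 8782 to 10030 in XGFP− cells, a sum dominated by *Dppa3*. The total over all 6 genes was 24237 to 25619.5 in XGFP+ and 25439 to 27004 in XGFP− PGCLCs. The ranges of this total overlapped, and it was higher in XGFP− cells in 4 of the 4 pairs of libraries with the same replicate number.

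The genes whose bulk pattern was most like that of each member were sought by Pearson's r over the 16 libraries, among the 11702 genes whose normalized counts averaged over 100, as a description that mostly follows the 4 groups. *Prdm1* was matched most closely by *Abcg1* (r = 0.995), *Hpgd* (r = 0.993) and *Enpp4* (r = 0.992). *Prdm14* was closest to *Sox2* (r = 0.991), a core pluripotency factor, then *Acacb* (r = 0.976) and *Dlc1* (r = 0.973). *Tfap2c* was closest to *Kit* (r = 0.996), the receptor tyrosine kinase of migrating germ cells, then *Tesk2* (r = 0.995) and *Dlc1* (r = 0.993). These neighbours differ in whether the ESC level was regained, as *Sox2* had means of 10937 in ESCs and 10600 in XGFP+ PGCLCs, and *Kit* 5352 and 10539.

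Of the members without a transgene, *Nanos3* was closest to *Tbc1d25* (r = 0.990), *Daam1* (r = 0.988) and *Zscan20* (r = 0.984), and *Dnd1* to *Kiz* (r = 0.998), *Mbp* (r = 0.995) and *Cerk* (r = 0.994). *Dppa3* was closest to *Rhox6* (r = 0.992), an X-linked homeobox gene, then *Aard* (r = 0.989) and its own pseudogene *Dppa3-ps* (r = 0.988). *Rhox6* fell from a mean of 5068 in XGFP+ to 2299 in XGFP− PGCLCs, in the same direction as *Dppa3*. Among the members themselves, r was highest for *Nanos3* with *Dppa3* (0.959) and *Prdm14* with *Tfap2c* (0.944) and lowest for *Prdm14* with *Dnd1* (0.447).

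Genes linked to the members by function were followed as lists. Of all tested genes, 27.8% were higher and 29.5% lower in XGFP+ PGCLCs against EpiLCs, and 29.9% and 31.9% in XGFP− PGCLCs. Between XGFP− and XGFP+ PGCLCs, 11.3% were higher and 12.5% lower in XGFP− cells. Of the 12 cofactors of the members, all tested, 3 rose and 4 fell in XGFP+ PGCLCs against EpiLCs, and the same numbers did so in XGFP− PGCLCs, with list medians of 0.17 and 0.10 on the log2 scale against medians over all genes of −0.004 and −0.026. *Prmt5*, an arginine methyltransferase that binds PRDM1, fell in both, at 0.679 and 0.526 of the EpiLC level. *Lin28a*, an RNA-binding protein that blocks let-7 maturation, fell to 0.194 and 0.267 of it. Against XGFP+ PGCLCs, 3 cofactors were lower in XGFP− cells and 9 did not pass. The 3 were *Prmt5* (0.774 of the XGFP+ level, FDR = 6.10e-06), and the CCR4-NOT deadenylase subunits *Cnot3* (0.816, FDR = 0.000875) and *Cnot8* (0.730, FDR = 3.63e-05). The co-repressor *Cbfa2t2*, which partners PRDM14, was at 1.16 times the XGFP+ level and did not pass (FDR = 0.00124).

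Among 11 DNA methylation, histone methylation and *Xist* genes named as targets of PRDM14 or DPPA3, 4 rose and 6 fell in XGFP+ PGCLCs and 3 rose and 7 fell in XGFP− PGCLCs against EpiLCs. Of all tested genes, 27.8% rose and 29.5% fell in XGFP+ PGCLCs, and 29.9% and 31.9% in XGFP− PGCLCs. *Dnmt3b*, the de novo DNA methyltransferase of the epiblast, went from a mean of 46987 counts in EpiLCs to 1173 in XGFP+ and 203 in XGFP− PGCLCs. *Uhrf1*, the cofactor of maintenance methylation that DPPA3 binds, went from 12897 to 3368 and 1850. *Dnmt1* rose instead, from 15747 to 22627 and 23895. Between the PGCLC groups, 1 gene of the list was higher and 5 were lower in XGFP− cells, where 11.3% of all genes were higher and 12.5% lower. *Xist*, the RNA that coats the inactive X, was 10.4-fold higher (6678 against 668, FDR = 1.75e-10). *Dnmt3l* (274 against 2695), *Dnmt3b* (203 against 1173), *Tet3* (48.0 against 115.4), *Uhrf1* (1850 against 3368) and *Ehmt1* (2445 against 2986) were lower. The list median was −0.29, against 0.013 over all genes.

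Of 14 early germ cell genes, 11 rose and 3 fell in XGFP+ PGCLCs against EpiLCs, and 10 rose and 3 fell in XGFP− PGCLCs. The shares of all genes were 27.8% higher and 29.5% lower in XGFP+ PGCLCs, and 29.9% and 31.9% in XGFP− PGCLCs. *Kit* rose 23.5-fold and 33.5-fold, and *Nanog* 3.28-fold and 2.75-fold, whereas *Pou5f1* fell to 0.677 and 0.751 of its EpiLC level. XGFP− against XGFP+ PGCLCs had 4 higher and 2 lower, against 11.3% of all genes higher and 12.5% lower. The interferon-induced membrane protein genes *Ifitm1* (1.60-fold) and *Ifitm3* (1.99-fold), *Kit* (1.43-fold) and the chemokine receptor gene *Cxcr4* (4.58-fold) were higher, and *Stk31* (0.371 of the XGFP+ level) and *Cd38* (0.401) were lower. *Pou5f1*, *Sox2* and *Nanog*, which had high means in both groups, did not pass, at 1.11, 1.08 and 0.839 of the XGFP+ level.

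Among paralogs of the members, *Nanos1*, a relative of *Nanos3*, averaged 105 counts in XGFP+ PGCLCs against 36.9 in XGFP− PGCLCs (0.353 of the XGFP+ level, FDR = 2.87e-06), and *Prdm16* was at 232 and 66.7 (0.283, FDR = 8.55e-08). Later germ cell markers, followed as a marker of stage, also differed: 5 of 6 (*Mael*, *Piwil2*, *Sycp3*, *Ddx4* and *Dazl*) were lower in XGFP− PGCLCs and *Tdrd9* did not pass. Of all genes, 12.5% were lower and 11.3% higher there. The summed counts of the 6 markers were 5649 to 11419 in XGFP+ and 958 to 2315 in XGFP− libraries. The summed naive pluripotency markers were 46539 to 53820 in XGFP+ and 27646 to 34370 in XGFP− PGCLCs. Both sums moved in the direction of *Nanos3* and *Dppa3*, and their part in the result was not tested.

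In rOvaries, RNA was measured by SMART-seq in single sorted wells, as read counts without molecular identifiers. The labels name no separate cultures, so each sorted population is 1 sample and no test was made. Intervals are exact and cover counting error only. Wells with fewer than 4000 genes, fewer than 10000 reads or over 5% of reads from mitochondria were removed, which left 462 of 518 rOvary wells and all 24 ESC wells. The removed wells were 6 XGFP+ constitutive, 19 XGFPhigh, 16 XGFPintermediate and 15 XGFPlow, so that 93.6%, 86.8%, 88.9% and 88.97% were kept. Median reads per cell were 354149, 636623, 645475, 640902 and 1103780 in that order, and the 10 empty wells held 0 to 242 reads in all, of which 2 were from *Dppa3* in 1 well and none from the other 5 genes. The germ cell gene *Dazl* exceeded a limit of 1 on the scale ln(reads per 10000 + 1) in 86.4%, 94.4%, 90.6% and 75.2% of the rOvary cells and in none of the 24 ESCs. All XGFP+ constitutive wells were on 1 sequencing lane, which also held 14 to 16 kept cells of each other rOvary population, and ESCs were on a different flow cell.

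*Prdm1* reads pooled over cells came to 28.8 CPM (reads scaled to a common library total) in XGFP+ constitutive (95% Poisson interval 26.97 to 30.8), 31.03 in XGFPhigh (29.8 to 32.3), 13.9 in XGFPintermediate (13.1 to 14.7) and 27.5 in XGFPlow cells (26.3 to 28.6), against 9.92 in ESCs (8.74 to 11.2). Only XGFPintermediate cells stood low among the rOvary populations. The share of cells with a read was 70.5%, 78.4%, 38.3% and 51.2% in the same order, and 62.5% in ESCs. *Prdm1* in XGFPlow cells thus had nearly the pooled level of XGFPhigh cells in fewer cells, and its median among cells with a read was 47.9 CPM in XGFPlow and 24.9 CPM in XGFPhigh cells.

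*Prdm14* was at 56.05 CPM in XGFP+ constitutive (53.5 to 58.7), 55.3 in XGFPhigh (53.7 to 56.95), 27.8 in XGFPintermediate (26.7 to 28.97) and 29.7 in XGFPlow cells (28.5 to 30.9), with 60.3 in ESCs (57.3 to 63.3). Cells with a read were 73.9%, 74.4%, 43.8% and 38.8%, and 91.7% in ESCs. XGFP+ constitutive and XGFPhigh cells were near the ESC level, and XGFPintermediate and XGFPlow cells were at 0.503 and 0.536 of the XGFPhigh level.

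*Tfap2c* was at 64.7 CPM in XGFP+ constitutive (61.9 to 67.6), 70.8 in XGFPhigh (68.99 to 72.6), 16.1 in XGFPintermediate (15.3 to 16.98) and 34.6 in XGFPlow cells (33.4 to 35.9), and 42.6 in ESCs (40.1 to 45.1). Reads were present in 76.1%, 85.6%, 32.8% and 48.8% of rOvary cells and in 100% of ESCs. XGFPintermediate cells were lowest, as for *Prdm1*.

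*Nanos3* had its lowest rOvary level in XGFPintermediate cells too, at 39.2 CPM in XGFP+ constitutive (37.0 to 41.4), 49.4 in XGFPhigh (47.9 to 50.9), 16.7 in XGFPintermediate (15.9 to 17.6) and 23.6 in XGFPlow cells (22.6 to 24.7). ESCs had 3.96 CPM (3.23 to 4.80), with 62.1% of the reads from 1 cell. The share of cells with a read was 59.1%, 75.2%, 33.6% and 48.8%, and 29.2% in ESCs.

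Pooled over lanes, *Dnd1* had 64 CPM in XGFP+ constitutive (61.2 to 66.9), 64.3 in XGFPhigh (62.5 to 66), 66.6 in XGFPintermediate (64.9 to 68.3) and 64.4 in XGFPlow cells (62.6 to 66.2), intervals that all overlap, and 7.07 in ESCs (6.09 to 8.17). Cells with a read were 81.8%, 72%, 59.4% and 71.9%, and 41.7% in ESCs.

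*Dppa3* was at 1069 CPM in XGFP+ constitutive (1058 to 1081), 1097 in XGFPhigh (1090 to 1104), 779 in XGFPintermediate (773 to 785) and 787 in XGFPlow cells (781 to 793), and 120.7 in ESCs (116.5 to 125). Its reads were found in 85.2%, 92%, 69.5% and 73.6% of cells, and 95.8% of ESCs. The median over single cells was 1117, 1053, 252 and 379 CPM, so that in XGFPintermediate and XGFPlow cells a minority of cells with high values, up to 6980 and 4461 CPM, carried much of the pooled level.

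**Figure D3:**
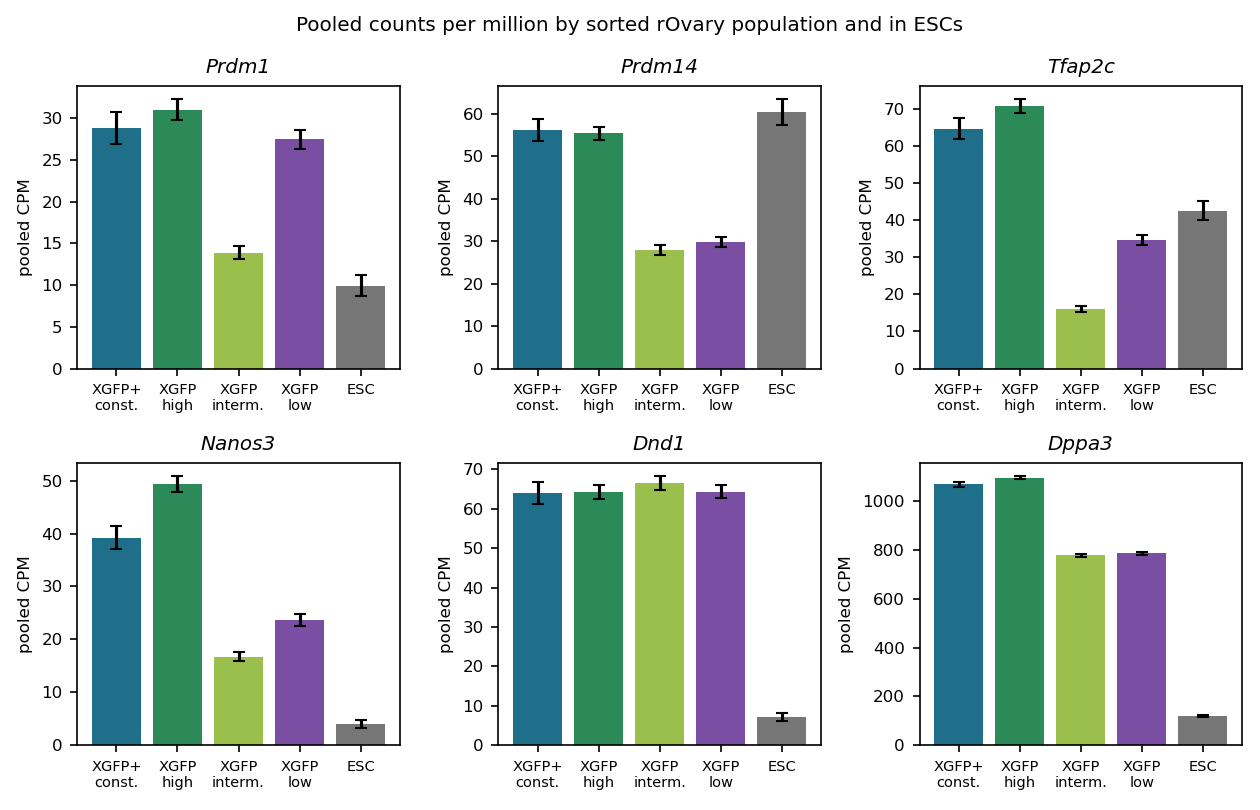
Pooled CPM of each gene (vertical axis, from 0) in the 4 sorted rOvary populations and in ESCs, with exact 95% Poisson intervals for counting error. Pooled over lanes, Prdm14, Tfap2c, Nanos3 and Dppa3 are higher in XGFP+ constitutive and XGFPhigh than in XGFPintermediate and XGFPlow cells. In the same pooled values, Prdm1 is low in XGFPintermediate cells and Dnd1 lies between 64 and 66.6 CPM in the rOvary populations. On the lane of the XGFP+ constitutive cells alone, Dppa3 is higher in XGFPintermediate than in XGFP+ constitutive cells.

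Against XGFPhigh cells, none of the 6 genes differed by 2-fold or more in XGFP+ constitutive cells, where 2.86% of 9988 genes were at least 2-fold higher and 1.80% lower. In XGFPintermediate cells *Prdm1*, *Tfap2c* and *Nanos3* were at least 2-fold lower and none was higher, at ratios of 0.447, 0.228 and 0.339, against 6.23% of genes lower and 15.9% higher. In XGFPlow cells *Tfap2c* and *Nanos3* were at least 2-fold lower, at 0.489 and 0.478, against 5.07% lower and 15.7% higher. *Prdm14* lay next to this limit in both, and *Dppa3* was at 0.710 and 0.718. The median ratio of all genes was shifted upward in both comparisons, by 0.25 on the log2 scale, so relative to that median the ratios of the members are lower still. These 3 comparisons share the XGFPhigh cells.

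The lanes differed. The 14 XGFPhigh cells on the lane of the XGFP+ constitutive cells had 14.6 CPM of *Prdm1* and 19.1 of *Prdm14*, whereas those on the other lane had 33.8 and 61.5. Within the first lane, *Prdm14* was 2.93-fold higher in XGFP+ constitutive than in XGFPhigh cells and *Prdm1* 1.97-fold higher, where the median of all genes was shifted by 0.38 on the log2 scale. *Dnd1*, which differed little in the pooled values, was lowest in XGFPhigh cells on that lane, with ratios to them of 1.48 in XGFP+ constitutive, 1.57 in XGFPintermediate and 1.70 in XGFPlow cells, whereas on the other lane the latter 2 ratios were 0.978 and 0.929. XGFPintermediate against XGFPhigh cells on that lane gave ratios of 0.953 for *Prdm1* and 1.54 for *Prdm14*, but 0.433 for *Tfap2c* and 0.271 for *Nanos3*. *Dppa3* was at 0.985 there and at 0.631 on the other lane. On the other lane the first 4 ratios were 0.410, 0.447, 0.210 and 0.353. For XGFPlow against XGFPhigh cells, *Nanos3* had ratios of 0.467 and 0.481 on the 2 lanes, and *Tfap2c* 0.821 and 0.460. The lower *Nanos3* level in XGFPintermediate and XGFPlow cells was thus present on both lanes, and that of *Prdm14* only on the lane with more cells. On the lane of the XGFP+ constitutive cells, *Dppa3* was at 1069 CPM in those cells and 1486 in XGFPhigh cells. It was at 1463 in XGFPintermediate and 1001 in XGFPlow cells there, so XGFPintermediate cells were above XGFP+ constitutive cells.

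Cells of XGFPhigh and of XGFP+ constitutive populations differed in depth, so each cell was thinned to 100000 reads. The shares of cells with a *Prdm1* read then became 67.05%, 63.2%, 34.4% and 47.1% in XGFP+ constitutive, XGFPhigh, XGFPintermediate and XGFPlow cells, and those of *Nanos3* 54.5%, 64%, 26.6% and 42.1%. *Tfap2c* was left in 73.9%, 82.4%, 28.9% and 42.98%, and *Dppa3* in 85.2%, 92%, 68.8% and 73.6%. *Prdm14* gave 71.6%, 70.4%, 39.1% and 36.4%, and *Dnd1* 76.1%, 64.8%, 55.5% and 68.6%. *Nanos3* was detected in 1 of 23 thinned ESCs (4.35%, interval 0.110 to 21.9%) and *Dnd1* in 7 (30.4%, 13.2 to 52.9%).

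**Figure D4:**
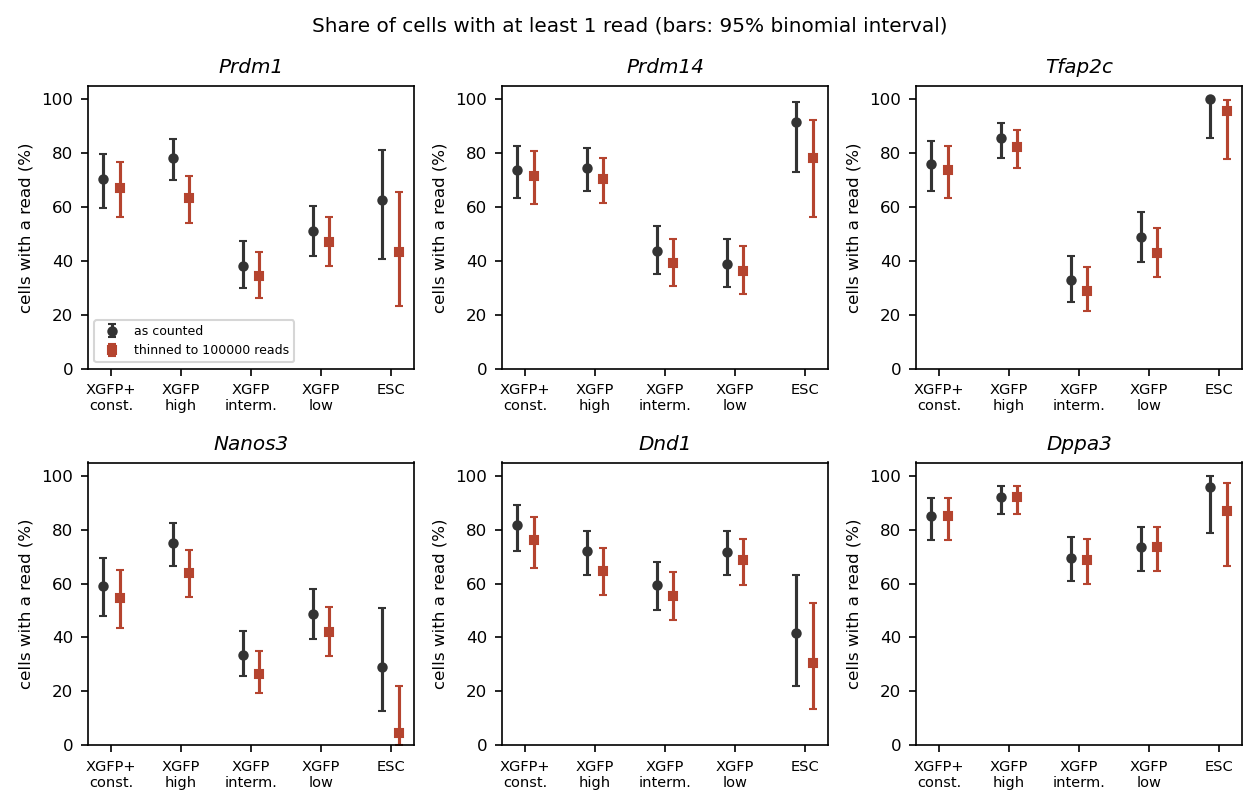
Percentage of cells with at least 1 read of each gene (vertical axis) in the 4 rOvary populations and in ESCs, as counted and after thinning to 100000 reads per cell, with exact 95% binomial intervals. Thinning lowers the shares in XGFPhigh cells more than in XGFP+ constitutive cells for each gene but Dppa3, and the shares in XGFPintermediate and XGFPlow cells stay below those of both for every gene except Dnd1.

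At the thinned depth, all 6 genes were detected together in 30 XGFP+ constitutive, 35 XGFPhigh, 9 XGFPintermediate and 19 XGFPlow cells, or 34.1%, 28%, 7.03% and 15.7% of them. None of the 6 was detected in 6, 4, 22 and 12 cells. The mean number of member genes per cell was 4.28, 4.37, 2.53 and 3.11. *Prdm1*, *Prdm14* and *Tfap2c* were detected together in 51.1%, 44%, 8.59% and 22.3% of cells, and *Nanos3*, *Dnd1* and *Dppa3* together in 47.7%, 48.0%, 24.2% and 33.9%. XGFPlow cells were spread over the whole range, with 24 cells holding 1 gene and 21 holding 5. In ESCs no thinned cell held all 6, and 18 of 23 held 3 or 4.

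**Figure D5:**
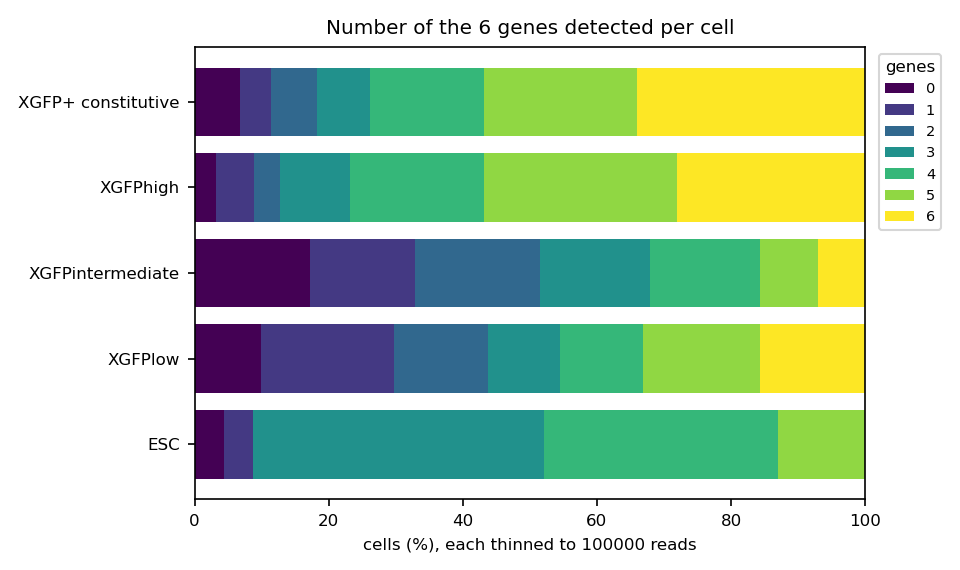
Share of cells (horizontal axis, percent) in which 0 to 6 of the genes had a read, each cell thinned to 100000 reads. The bars of XGFP+ constitutive and XGFPhigh cells are mostly 4 to 6 genes, while XGFPintermediate and XGFPlow cells include more cells with 0 to 2 genes.

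Other transcripts moved beside these levels. The summed pooled level of 6 later germ cell markers was 2087, 2139, 4303 and 2708 CPM in XGFP+ constitutive, XGFPhigh, XGFPintermediate and XGFPlow cells, highest in XGFPintermediate cells, with none of the 6 markers at 0. Despite the near-equal sums of the first 2 populations, *Ddx4*, *Mael* and *Sycp3* were at least 2-fold lower in XGFP+ constitutive than in XGFPhigh cells. Of the 5 markers tested there, 0 were higher, and 1.80% of all genes were that much lower and 2.86% higher. The summed naive pluripotency markers, which were 2251 CPM in ESCs, were 938, 1264, 223 and 280. The part of either list in the members' levels was not tested. Gonadal somatic markers summed to 16, 12.3, 323 and 90.2 CPM, with a median cell at 3.21, 1.45, 0 and 0 CPM, and only 5 XGFPintermediate and 3 XGFPlow cells exceeded 1000 CPM. *Gata4*, *Foxl2*, *Col1a1* and *Col3a1* were at 0 in XGFP+ constitutive and *Nr5a1* and *Col3a1* in XGFPhigh cells. When only cells above the *Dazl* limit were kept, the somatic markers summed to 11.02, 11.4, 13.6 and 15.5 CPM. *Prdm1*, *Tfap2c* and *Nanos3* were then still at least 2-fold lower in XGFPintermediate, and *Tfap2c* and *Nanos3* in XGFPlow, than in XGFPhigh cells. In this setting 782 of 10293 genes were at least 2-fold lower and 1315 higher in XGFPintermediate cells. For XGFPlow cells, 726 of 10291 genes were lower and 1066 higher.

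The cells below the *Dazl* limit were few, 12, 7, 12 and 30 in the 4 populations. In XGFPlow cells they had 56.6 CPM of *Tfap2c* (53.2 to 60.1), against 28.1 (26.8 to 29.4) in the 91 cells above the limit, and 380 CPM of *Dppa3* (371 to 389) against 909 (902 to 917). In XGFPintermediate cells they had 3.10 CPM of *Tfap2c* (2.04 to 4.51) against 17.6 (16.7 to 18.6) and 69.1 CPM of *Dppa3* against 861. *Dppa3* was lower below the limit in all 4 populations, at 546 against 1143 CPM in XGFP+ constitutive and 546 against 1130 CPM in XGFPhigh cells, while *Tfap2c* was lower there in XGFPintermediate cells, higher in XGFPlow and XGFP+ constitutive cells (93.8 against 60.7 CPM) and alike in XGFPhigh cells (70.5 against 70.8 CPM).

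Of the 12 cofactors, none differed by 2-fold from XGFPhigh in XGFP+ constitutive or XGFPlow cells, and 1 (*Cnot6l*, higher) in XGFPintermediate cells. For all lists, the shares of all genes at least 2-fold higher and lower than in XGFPhigh cells were 2.86% and 1.80% in XGFP+ constitutive cells. They were 15.9% and 6.23% in XGFPintermediate, and 15.7% and 5.07% in XGFPlow cells. Among the epigenetic targets, *Dnmt3l* was at 146 CPM in XGFPhigh, 130 in XGFP+ constitutive, 4.19 in XGFPintermediate and 9.18 in XGFPlow cells, and *Tet2*, a methylcytosine dioxygenase, at 36.5, 30.4, 14.7 and 14.6 in that order. They were the 2 list genes at least 2-fold lower in both XGFPintermediate and XGFPlow cells, while *Ehmt2*, *Tet3* and *Xist* were at least 2-fold higher in XGFPlow cells. Of the early germ cell genes, 2 were higher and 6 lower in XGFPintermediate and 1 higher and 3 lower in XGFPlow cells. *Nanog* went from 209 CPM in XGFPhigh to 26.9 in XGFPintermediate and 39.6 in XGFPlow cells, and *Stk31* in the other direction, from 191 to 693 and 546.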

How the data were processed

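The members and gene lists were chosen with earlier results of these data known. Bulk RNA-seq of 4 groups of 4 libraries and SMART-seq of 552 wells were analysed. The authors aligned reads to mm10 with STAR, counted them per gene with HTSeq 0.6.1 and deposited bulk values as normalized counts, a signal equal to reads divided by a DESeq2 size factor. The single-cell file was deposited as raw read counts per gene and well, without molecular identifiers. The authors' processing notes also name limma, DESeq2 1.16 and Seurat. Allele-resolved bulk columns were not used, 4 of them matching no sample. Strandedness of the counting is not given in the sources used here.

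Normalized counts were multiplied back to whole reads (100% of values within 0.01 of a whole number), giving 29.8 to 46.5 M reads per library. Genes with a mean normalized count above 10 (16281 of 16335) were tested with limma 3.58.1 (trend) on log2(normalized count + 1), 6 contrasts, Benjamini-Hochberg FDR below 0.001. Ensembl identifiers were named with GENCODE vM21, and 238 had no symbol. *Lin28a* and *Dnmt3b* each stand in 2 lists. Alternatives used edgeR 4.0.16 and DESeq2 1.42.0 on recovered reads, other pseudocounts, filters and normalizations, the 2 groups alone, a replicate block, and each library left out. Tests were checked on simulated data. XGFP+ and XGFP− PGCLC libraries of the same number deviated together (r = 0.254, 0.135, 0.200 and 0.307 for numbers 1 to 4), so the numbers pair these 2 groups by the data. No 2 libraries of a group agreed within counting noise.

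In single cells, reads were pooled per population as CPM with exact 95% Poisson intervals, shares had exact Clopper-Pearson intervals, and genes with at least 5 CPM in 1 of 2 populations were compared at a fold of 2. Each well held 1 sorted cell and no doublet caller was run. Named genes were the 6 members, the 3 genes closest to each by r (mean normalized count above 100), and, of each list, every gene called between XGFP− and XGFP+ PGCLCs and up to 3 with the highest mean. Other list genes, among them *Itgb3*, *Fut4* and those named only in single cells, were chosen after their values were seen. A result on 1 list gene is not reported here.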

Additional observations from a re-analysis of the deposited data

Results flagged for a closer look

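Among 24 groups of 4 libraries (6 genes in 4 groups), 1 library stood apart from the others of its group. *Prdm14* in XGFP+ PGCLC replicate 3 had 3018.97 normalized counts, against 3511 to 3583 in the other 3 libraries, and its gap to the nearest was 0.872 of the group's range, above Dixon's 95% critical value for 4 samples. Chance flags about 1 in 20 groups. Without this library, the log2 difference of *Prdm14* between XGFP− and XGFP+ PGCLCs was 0.28 (SE 0.50).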

How the results depend on the processing

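No call of a member in the bulk comparisons changed direction under the alternatives run. *Prdm14* between XGFP+ PGCLCs and ESCs, which was not called, lay on either side of 0 when single libraries were left out (log2 difference −0.04 to 0.08). Fitting only the 2 groups compared raised the members called between XGFP− and XGFP+ PGCLCs from 2 to 5, in a fit that called 3671 genes against 3873. *Prdm1* in that comparison also passed with a pseudocount of 10 (FDR = 0.000981), with edgeR (0.000454), with DESeq2 (1.35e-05) and without EpiLC replicate 1, EpiLC replicate 4 or ESC replicate 2. With the 2 groups alone *Prdm14* passed between XGFP− PGCLCs and ESCs, and *Prdm1* no longer passed between EpiLCs and ESCs.

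With the replicate number as a block, 2 members were called between XGFP− and XGFP+ PGCLCs, as without it, and 4170 genes against 3873. The block changed no call of a member in the 6 comparisons. It was used only in the model of all 16 libraries, so it does not cover the fits of 2 groups alone.

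On the sequencing lane shared by all rOvary populations, with 14 XGFPhigh cells, 1 member was at least 2-fold higher in XGFP+ constitutive than in XGFPhigh cells (0 on all lanes), where 24.5% of genes were. There 2 members were at least 2-fold lower in XGFPintermediate cells (3 on all lanes; 10.1% of genes) and 1 in XGFPlow cells (2 on all lanes; 11.4% of genes), and the cause was not tested. Differences from XGFPhigh cells changed sign on that lane for *Prdm14* in XGFPintermediate (log2 difference −0.99 on all lanes, 0.63 there) and XGFPlow cells (−0.90, 0.57), for *Prdm1* in XGFPlow (−0.18, 0.53) and XGFP+ constitutive cells (−0.11, 0.98), and for *Tfap2c* (−0.13, 0.77) and *Dnd1* (−0.0057, 0.57) in XGFP+ constitutive cells. *Nanos3* in EpiLCs rested on 4 to 16 reads per library, and each rOvary population is 1 sample.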
